A study of Mus musculus with 12 samples.

Results

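Of 55291 gene symbols counted in cells isolated as VE-cadherin-positive from mouse bone marrow and lung, 92 were close to absent without leukaemia and present in the marrow of mice with acute myeloid leukaemia (AML). They were chosen by level. CPM are the counts of a symbol divided by the library total and given per 1 M counts. A symbol was taken if it lay under 1 CPM in each of the 6 control libraries and averaged at least 5 CPM over the 3 marrow AML libraries. Il6 and symbols that begin with Col, Ccl, Ccr, Cxc, Sema or Eph were left out, which removed 1 symbol that met both limits, Col19a1, at 6.75 CPM. The marrow AML levels and all control levels therefore chose the 92 transcripts. The marrow values are given as a description, without a test. The lung AML libraries took no part in the choice, but the lung controls did, so the lung contrast is only partly free of it. Lung p-values are therefore read beside the symbols chosen on marrow libraries alone, a wider set that holds all 92 and is described further on.

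RNA was sequenced from VE-cadherin-positive cells, labelled endothelial, isolated from VECadCre-tdTomato mice, in which a Cre recombinase driven by the VE-cadherin promoter marks cells that have ever used that promoter. The groups were marrow AML and marrow control, lung AML and lung control, with 3 libraries each. AML mice had been transplanted with AML cells carrying Trp53(R172H/delta), a missense allele of the p53 tumour suppressor beside a deleted one, and control mice had not been transplanted. The Cre line and reporter were shared by all groups, and nothing in the labels says whether libraries of a group came from separate mice, so p-values measure the spread between these libraries, which may be technical.

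VE-cadherin is an adhesion protein of the junctions between endothelial cells, the cells that line blood vessels. Marrow vessels carry blood, let new blood cells leave the marrow and supply signals that keep blood stem cells in place, and leukaemia is known to change their shape and their leakiness. The transcripts described here belong to no single pathway. Among them are genes known from ion channels, from germ cells, from type 2 immunity, from hormone-secreting cells and from retina.

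Libraries held 12.8 to 24.8 M counts in marrow AML, 17.0 to 21.8 M in marrow control, 26.2 to 39.2 M in lung AML, and 24.1 to 28.6 M in lung control. A single count was worth between 0.0255 and 0.0782 CPM. The endothelial label was checked against its markers. Cdh5, which encodes VE-cadherin, averaged 0.768 ± 0.375 CPM in marrow AML and 4.72 ± 1.30 CPM in marrow control, and 14.1 ± 12.2 CPM in lung AML and 179 ± 137 CPM in lung control (SD, n = 3 each). Of 20 pan-endothelial markers, 9 were called lower and 1, Esam, higher in marrow AML than in marrow control, with a median log2 fold change of −1.75, and 11 were called lower in lung AML than in lung control. Their sum lay between 279 and 328 CPM in marrow AML and between 267 and 398 CPM in marrow control, and between 362 and 1283 CPM in lung AML and between 3769 and 13181 CPM in lung control. Without Esam and Egfl7 the sum averaged 130 ± 9.38 CPM in marrow AML and 289 ± 57.4 CPM in marrow control (SD, n = 3 each). Other tissue was also present. The 12 lung epithelium markers summed to 210080 ± 11180 CPM in lung AML and 171006 ± 19386 CPM in lung control, and the 14 erythroid markers to 3350 ± 2616 CPM in marrow AML and 26304 ± 1017 CPM in marrow control (SD, n = 3 each). The 12 marrow stromal and osteolineage markers summed to 17940 ± 6988 CPM in marrow AML and 11997 ± 2101 CPM in marrow control. They did not move together, with 4 called higher and 4 lower in marrow AML. Spp1 averaged 9931 CPM in marrow AML and 904 CPM in marrow control, and Col1a1 662 CPM in marrow AML and 6576 CPM in marrow control. For the 8 fibroblast markers the sums were 4350 ± 2724 and 1566 ± 730 CPM. Lung epithelium markers were also counted in the marrow libraries, at 913 ± 852 CPM in marrow AML and 1135 ± 1057 CPM in marrow control. In bulk RNA, fewer cells of a type and less RNA per cell cannot be told apart.

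The word "only" did not hold for these transcripts. Of the 92, 85 had at least 1 count in a control library, 7 had none over the 6 controls, and 19 averaged at least 1 CPM in lung AML. They are therefore called marrow-AML-high transcripts. Their 62 annotated coding genes and 30 predicted, clone or noncoding genes comprised 70 of the protein-coding biotype, 11 lincRNA, 5 antisense, 4 processed transcripts and 1 sense intronic transcript, and 1 symbol had no annotation. Positions of 90 of them came from GENCODE M21 on GRCm38, the assembly that mm10 names.

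To show the DNA in front of genes at the head of the list, the 250 bases before the RefSeq start (GRCm38.p6) are given for 4 members, Fgf12, Tex19.2, Slc35f2 and Tarm1. The first 3 are the highest coding members in marrow AML whose RefSeq start lies at or outside the GENCODE gene, and Tarm1 is the next of these, with matches to the TATA box pattern. Capitals mark matches on either strand to 5 patterns. They are the AP-1 pattern TGANTCA, the core of the hypoxia element written ACGTG, the GATA factor pattern, which reads AGATAA, the TATA box pattern, which reads TATAAA, and the E box pattern, which reads CANNTG. The last is its own reverse complement, ACGTG can overlap it, and the first 2 of these sequences hold no match in the 250 bases.
Fgf12, chr16:28753244-28753493, minus strand: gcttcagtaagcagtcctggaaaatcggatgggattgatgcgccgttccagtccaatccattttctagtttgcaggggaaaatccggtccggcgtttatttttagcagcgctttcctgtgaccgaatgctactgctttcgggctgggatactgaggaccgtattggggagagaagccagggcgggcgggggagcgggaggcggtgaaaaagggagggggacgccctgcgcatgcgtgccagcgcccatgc
Tex19.2, chr11:121118678-121118927, minus strand: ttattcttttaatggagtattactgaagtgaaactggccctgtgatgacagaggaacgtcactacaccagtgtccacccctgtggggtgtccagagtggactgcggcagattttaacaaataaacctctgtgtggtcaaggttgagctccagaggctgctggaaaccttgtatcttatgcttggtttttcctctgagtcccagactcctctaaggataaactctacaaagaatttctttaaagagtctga
Slc35f2, chr9:53771285-53771534, plus strand: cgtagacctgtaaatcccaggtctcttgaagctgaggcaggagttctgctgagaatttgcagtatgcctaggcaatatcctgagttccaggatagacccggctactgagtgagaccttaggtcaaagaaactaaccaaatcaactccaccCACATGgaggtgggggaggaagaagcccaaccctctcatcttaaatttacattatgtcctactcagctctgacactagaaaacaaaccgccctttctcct
Tarm1, chr7:3502625-3502874, minus strand: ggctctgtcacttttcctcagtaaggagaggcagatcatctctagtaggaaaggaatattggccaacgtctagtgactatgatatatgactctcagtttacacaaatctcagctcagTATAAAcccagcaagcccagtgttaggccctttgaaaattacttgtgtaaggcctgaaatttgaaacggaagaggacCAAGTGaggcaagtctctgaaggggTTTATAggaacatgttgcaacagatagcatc

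RefSeq held a promoter for 66 of the 92 transcripts. Within 250 bases before to 50 after the start, TGANTCA was found in 10 of the 66 (15.2%), against 7.93% of all 27025 promoters, and AGATAA in 13 (19.7%), against 11.4%. CANNTG was found in 58 (87.9%), against 72.1%, ACGTG in 10 (15.2%), against 19.7%, and TATAAA in 9 (13.6%), against 14.2%. Median GC content was 50.2% over the 66 and 52.7% over all promoters. These are letter matches and no sites of a factor, and the differences were not tested.

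Summed over the 92 transcripts, the level was 1118, 1398 and 916 CPM in marrow AML and 19.4, 14.1 and 24.2 CPM in marrow control. In the lung it was 93.7, 49.1 and 60.1 CPM in lung AML and 20.3, 18.5 and 17.9 CPM in lung control. Both AML groups lay wholly above their own controls, the marrow by construction. The lung AML mean, 67.6 ± 23.2 CPM, was 3.58 times the lung control mean of 18.9 ± 1.23 CPM, and the marrow AML mean, 1144 ± 242 CPM, was 16.9 times the lung AML mean (SD, n = 3 each). Without Fgf12 and Kcne3, the 2 highest, the means were 1005 CPM in marrow AML, 18.8 CPM in marrow control, 62.5 CPM in lung AML and 17.8 CPM in lung control.

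**Figure D1:**
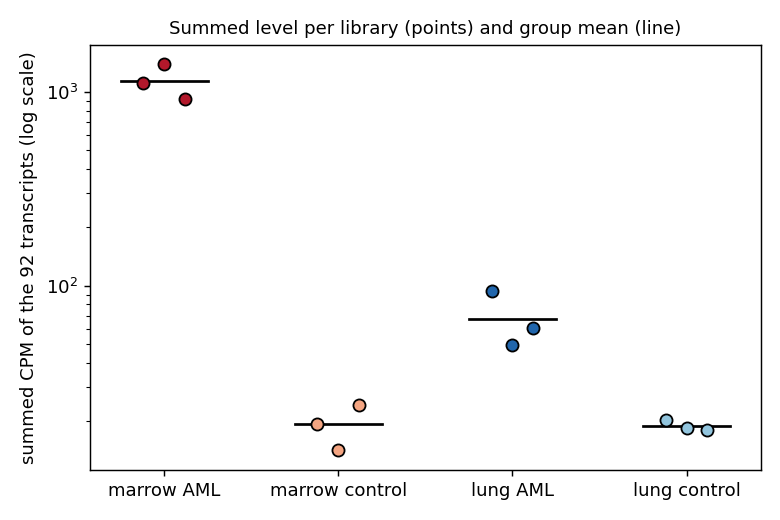
Summed CPM of the 92 marrow-AML-high transcripts in each of the 12 libraries (points; log axis), by group. The 3 lung AML libraries lie between 49.1 and 93.7 CPM, above the 3 lung control libraries and below the 3 marrow AML libraries, whose lowest is 916 CPM.

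Marrow AML means ran between 5.21 and 75.1 CPM with a median of 7.9 CPM, and 34 transcripts reached 10 CPM and 12 reached 20 CPM. The 3 marrow AML libraries did not hold them equally. A level of at least 5 CPM in each library was reached by 33, a level of at least 1 CPM in each by 77, and 15 were under 1 CPM in 1 or more. Library 2 was the highest for 47, library 1 for 28 and library 3 for 17. Over the 85 with a count in each, the highest library exceeded the lowest by a median of 2.53-fold, and 59 differed by more than 2-fold.

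As a description of how even the choice was, each marrow AML library was left out in turn and the rule was applied to the other 2. It then took 102, 88 and 96 symbols without libraries 1, 2 and 3. In the library left out, 54 of the 102 (52.9%), 57 of the 88 (64.8%) and 45 of the 96 (46.9%) reached 5 CPM, against 0.293%, 0.316% and 0.308% of all 38618 symbols under 1 CPM in each control. At the lower level of 1 CPM the shares were 80.4%, 85.2% and 85.4%, and 12, 9 and 8 of the chosen symbols had no count in the library left out. Of the 38618 symbols, 37932 averaged under 1 CPM in marrow AML, so their share is low by makeup. Symbols present in 2 libraries of a group would exceed it almost regardless, so no conclusion is drawn from that contrast.

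The roles below were grouped after the values were seen. Fgf12, a fibroblast growth factor homologue that stays in the cell and binds sodium channels, measured 64.8, 92.4 and 68.1 CPM in marrow AML and 0, 0.0467 and 0.647 CPM in marrow control. In the lung it measured 3.7, 1.18 and 2.59 CPM in lung AML and 0.29, 0.441 and 0.455 CPM in lung control. All 3 AML libraries lay above all 3 controls in each tissue. The lung difference, a log2 fold change of 2.70 ± 0.74 (SE), did not pass the test (adjusted p = 0.0879, edgeR).

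Kcne3, an accessory subunit of voltage-gated potassium channels, measured 70.3, 83.8 and 37.7 CPM in marrow AML and 0.229, 0.0467 and 0.235 CPM in marrow control. Lung AML gave 4.6, 1.22 and 2.17 CPM and lung control 0.539, 0.699 and 0.875 CPM, again without overlap, and the lung log2 fold change of 1.98 ± 0.52 missed the threshold (adjusted p = 0.0789, edgeR). Per kilobase of exon, Kcne3 was the highest of the 92 in marrow AML, with 35.9 CPM per kb, and Fgf12 with its longer exons ranked 14th, with 12.1 CPM per kb. Kcnt1, a potassium channel opened by sodium, was among the most even, with 17.9, 17.2 and 20.8 CPM in marrow AML and 0.275, 0.0467 and 0.412 CPM in marrow control. The 9 genes grouped as channel or transporter, among them Fgf12, which binds channels, had a median of 12.1 CPM in marrow AML and of 0.745 CPM in lung AML.

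Slc35f2, a solute carrier, measured 38.7, 27.6 and 23.6 CPM in marrow AML and 0.918, 0.607 and 0.118 CPM in marrow control. In the lung it was higher with AML, at 3.42, 1.7 and 2.1 CPM, against 0.29, 0.331 and 0.49 CPM in lung control (log2 fold change 2.75 ± 0.60, adjusted p = 0.0387, edgeR). The call was lost in each of the 6 fits that left out 1 lung library (adjusted p between 0.0557 and 0.167) and with the replicate block (0.0657). This was the only one of the 4 Slc members to pass in the lung. Slc22a2, a transporter of organic cations known from kidney, had no count in lung AML and none in 1 marrow AML library. By symbol start, solute carriers made up 4 of the 92 (4.35%) and 1.6% of the symbols tested, and ion channels 2 (2.17%) and 0.568%.

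Among the 92, 5 genes were grouped as known from germ cells, each gene being given at most 1 role. Gtsf1, which acts with piRNA proteins to silence transposons in germ cells, measured 51, 42.9 and 45.2 CPM in marrow AML and 0.0918, 0.0934 and 0.883 CPM in marrow control. Its highest marrow AML library exceeded its lowest by 1.19-fold, the smallest spread among the coding members. Lung AML gave 2.73, 1.63 and 1.56 CPM and lung control 0.0415, 0.0368 and 0 CPM. The lung fold change was 6.11 ± 0.94 on the log2 scale (adjusted p = 0.0112, edgeR), and the ratio of summed levels was 82.9, with a 95% counting interval of 22.6 to 690. It was the lone member called in all 6 fits that left out 1 lung library, with adjusted p between 0.022 and 0.0495, and it was also called with the replicate block (0.0191).

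Tex19.2, a gene of germ cells, measured 46.1, 45.2 and 19.1 CPM in marrow AML and 0.0459, 0.0467 and 0.588 CPM in marrow control. It was higher in lung AML, at 1.4, 0.555 and 1.75 CPM, than in lung control, at 0.0415, 0.0736 and 0 CPM (log2 fold change 4.93 ± 1.04, adjusted p = 0.0348, edgeR), a call kept in 1 of the 6 fits and not with the block (0.0726). Prss42, a serine protease of testis, reached 3.68, 9.94 and 3.31 CPM in marrow AML, had no count in any of the 6 controls, and was at least 15.8-fold higher in lung AML than a floor of 3 counts over the lung controls (adjusted p = 0.0376, edgeR), which none of the 6 fits kept (0.0633 to 0.124), nor the block (0.0991). Ddx25, an RNA helicase of testis, and Hsf2bp, a partner of meiotic recombination proteins, were present in marrow AML at means of 7.08 and 7.89 CPM and did not pass in the lung. Exons of Hsf2bp overlap those of Rrp1b on the other strand, and counting ignored strand.

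Genes grouped as known from immune and blood cells made up 12 of the 92, and Gzme, 1 of these, was not tested. The others had 0 calls in the lung, beside 2.33% of all symbols tested. At that share a group this small would be likely to have no call, so the count says nothing about these genes. Il4, the type 2 cytokine, measured 33, 43.2 and 23.5 CPM in marrow AML and 0.0459, 0.981 and 0.706 CPM in marrow control. In the lung the groups overlapped, with 0.638, 0.518 and 0.686 CPM in lung AML and 0.581, 0.956 and 0.49 CPM in lung control (log2 fold change −0.06 ± 0.68, adjusted p = 0.989, edgeR). Its companion type 2 cytokines were not among the 92: Il13 averaged 0.0941 CPM and Il5 0.309 CPM in marrow AML. Il4 was also the member nearest the control limit, at 0.981 CPM in 1 control.

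Rgs13, a regulator of G protein signalling of B and mast cells, measured 6.1, 13.3 and 15.4 CPM in marrow AML and 0.138, 0.0934 and 0.177 CPM in marrow control. Ms4a2, the beta chain of the high-affinity IgE receptor, measured 2.03, 6.85 and 7.62 CPM in marrow AML and 0.413, 0.14 and 0.471 CPM in marrow control. Cd200r3, a receptor of basophils and mast cells, measured 4.61, 11.5 and 1.49 CPM in marrow AML and 0, 0.0467 and 0 CPM in marrow control. All 3 lay above 1 CPM in each marrow AML library, apart from every control of the marrow.

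Tph1, which makes serotonin outside the brain, ranged between 1.17 and 16.7 CPM over the marrow AML libraries. Nuggc, a nuclear GTPase of germinal centre B cells, measured 19.9, 20 and 16.2 CPM in marrow AML and 0.0918, 0.0934 and 0 CPM in marrow control. Tarm1, an activating receptor of myeloid cells whose promoter is printed above, measured 14.8, 23.1 and 3.31 CPM in marrow AML and 0, 0.0467 and 0 CPM in marrow control. Il12rb1, the shared receptor chain of interleukins 12 and 23, measured 23.5, 7.94 and 10 CPM in marrow AML and 0.275, 0.327 and 0.353 CPM in marrow control, and Il20ra 4.85, 11.4 and 9.72 CPM in marrow AML and 0.367, 0.327 and 0.588 CPM in marrow control. Gzme, a granzyme of cytotoxic cells, rested on 1 library, with 0, 21.8 and 0 CPM in marrow AML and 0 in all controls.

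Markers of other cells also differed between the groups, in directions that varied with the list and the tissue. Of 15 mast cell and basophil markers, which include Ms4a2, 5 were at 0 throughout marrow AML, and Tpsb2, Tpsab1, Mrgprb2 and Mrgprx2 were at 0 in all 12 libraries. Of the 10 tested, 6 were called higher and 1 lower in marrow AML. The summed level of the 15 lay between 197 and 374 CPM in marrow AML and between 82.7 and 127 CPM in marrow control, and between 157 and 229 CPM in lung AML and between 383 and 722 CPM in lung control. Kit and Hdc carry the lung sum and most of the difference between the marrow sums. In the marrow, the sum without them averaged 110 ± 39.6 CPM with AML and 86.2 ± 11.5 CPM in control (SD, n = 3 each). These 2 marrow groups overlapped. The other 13 summed to between 2.55 and 65.7 CPM in lung AML and between 3.15 and 5.89 CPM in lung control, where Prss34 averaged 14.6 CPM in lung AML and 0.13 CPM in lung control, and the list's median lung log2 fold change was 1.69. In the lung Kit was called lower, and no marker was called higher. The 10 pan-leukocyte markers summed to between 693 and 937 CPM in marrow AML and between 134 and 174 CPM in marrow control, and to between 381 and 506 CPM in lung AML and between 518 and 681 CPM in lung control. Arhgdib carries the marrow sum, and the other 9 summed to between 213 and 335 CPM in marrow AML and between 120 and 155 CPM in marrow control. Of the 10, 8 were called higher in marrow AML and Rac2 lower, and Ptprc averaged 2.20 CPM in marrow AML and 5.03 CPM in marrow control. The 11 pericyte and smooth muscle markers summed to between 3223 and 11104 CPM in marrow AML and between 200 and 692 CPM in marrow control. In the lung they summed to between 543 and 870 CPM with AML and between 615 and 1951 CPM in control. No monocyte and macrophage marker and no T and NK cell marker was called in either tissue. The part of these cells in the levels of the 92 transcripts was not tested.

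Of the 14 erythroid markers, 13 were called lower in marrow AML than in marrow control, whereas 3 were called higher in lung AML than in lung control. Rhag, an erythroid membrane protein, measured 71.2, 14.3 and 23.8 CPM in lung AML and 0.954, 1.4 and 1.09 CPM in lung control (log2 fold change 5.04, adjusted p = 0.0025, edgeR). Klf1, the erythroid transcription factor, gave an adjusted p of 0.00239 and Ermap one of 0.017. Rhag, Klf1 and Ermap were highest in lung AML library 1 and lowest in library 2, as was the summed level of the 92. Other markers of this list went the other way in the lung, though none was called lower. Hba-a2 had a lung log2 fold change of −4.03, Hbb-bs of −3.21 and Alas2 of −2.52, and the list's median was 0.58. Hbb-bs was highest in library 3, with 8.66, 5.36 and 18.7 CPM in lung AML. The sum of the 14 lay between 295 and 523 CPM in lung AML and between 507 and 537 CPM in lung control. The part of erythroid cells in the lung levels of the 92 was not tested.

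Several secreted proteins and hormone genes were uneven over the marrow AML libraries. Gcg, the precursor of glucagon, measured 13.5, 0 and 20.6 CPM in marrow AML and 0.0459, 0.0467 and 0 CPM in marrow control. Fgl1, a fibrinogen-like protein of liver, measured 11.3, 39.6 and 0.0403 CPM in marrow AML and 0.138, 0.234 and 0.588 CPM in marrow control, so that 1 AML library lay below all controls. Crhr2, a receptor of the corticotropin-releasing hormone family, measured 0.235, 15.8 and 4.03 CPM in marrow AML and 0.275, 0 and 0.765 CPM in marrow control. In each of these 3, at least 1 marrow AML library was no higher than the highest marrow control.

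Serpina3m, a serine protease inhibitor, was even in the marrow, with 9.15, 12.3 and 11.1 CPM in marrow AML and 0.413, 0.0467 and 0 CPM in marrow control. It had the highest lung AML level of the 92, at 4.11, 7.73 and 3.85 CPM, against 0.498, 0.294 and 0.56 CPM in lung control (log2 fold change 3.62 ± 0.83, adjusted p = 0.0478, edgeR). That call was lost in each of the 6 fits that left out 1 lung library (0.1 to 0.181) and with the replicate block (0.0945). That mean was 48.2% of its marrow AML mean, against a median of 4.19% over the 92. Its near copy Serpina3n averaged 146 CPM in marrow AML and 1.89 CPM in marrow control, and 117 CPM in lung AML and 31.6 CPM in lung control, and reads shared between copies could be split by the counting. Lgals7, galectin-7 of stratified epithelia, measured 28.3, 18.8 and 11.2 CPM in marrow AML and 0.229, 0.934 and 0.235 CPM in marrow control, and passed in the lung at 3.52, 0.518 and 1.64 CPM in lung AML, against 0, 0.11 and 0.035 CPM in lung control (log2 fold change 5.19 ± 1.05, adjusted p = 0.0303, edgeR; 0.0561 with the block).

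Transcription factor and retinal genes were found in marrow AML at modest levels. The homeobox genes Hesx1, Isl2 and Msx2 and the AP-1 subunit gene Fosl1 averaged between 5.3 and 11.1 CPM in marrow AML and between 0.128 and 0.402 CPM in lung AML, and none passed there. Fosl1 shares 1055 exonic bases with Ccdc85b on the other strand, which averaged 44.1 CPM in marrow AML and 9.53 CPM in marrow control. Pde6h, a subunit of the cone phosphodiesterase, measured 13.4, 17.4 and 9.43 CPM in marrow AML and 0.138, 0 and 0.235 CPM in marrow control. Its exons cover 7846 bases, and the longest overlap with an exon of Arhgdib is 76 bases. Arhgdib is a leukocyte gene on the other strand, at 522 CPM in marrow AML and 14.1 CPM in marrow control. Without strand, reads in shared bases cannot be assigned to one gene of the pair, and their number was not measured. Gnat2, the cone transducin, ranged between 0.704 and 8.55 CPM over marrow AML.

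**Figure D2:**
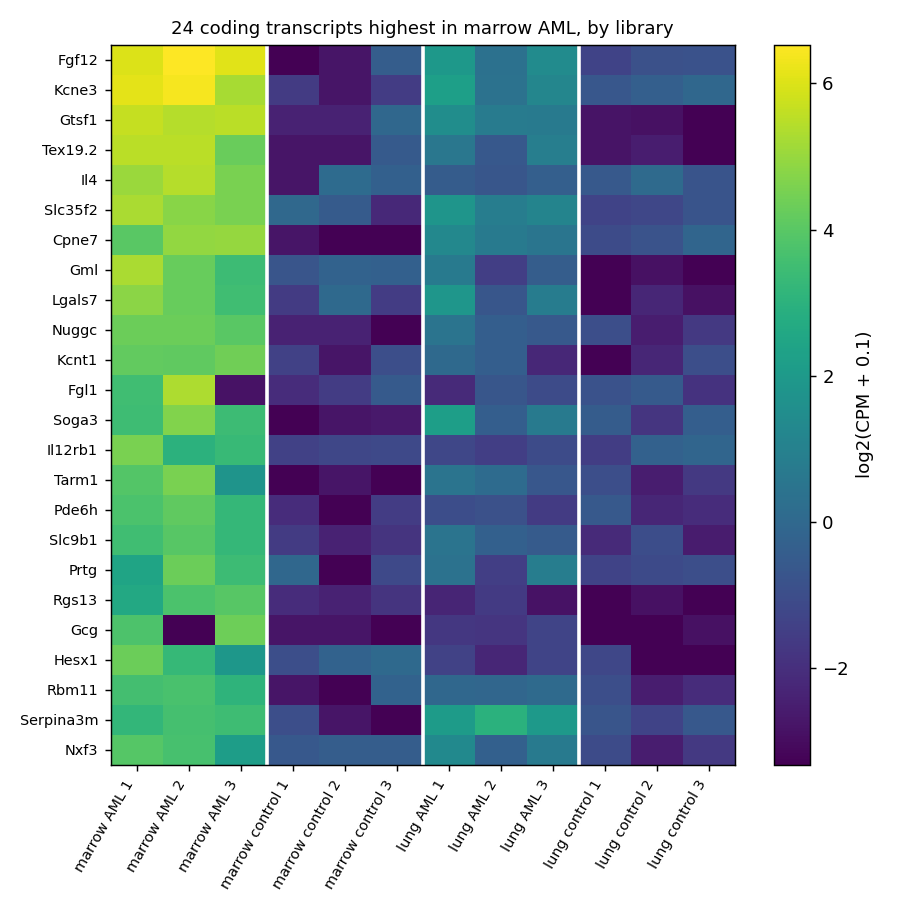
Levels of the 24 annotated coding transcripts highest in marrow AML (rows) in the 12 libraries (columns), as log2(CPM + 0.1). Marrow AML libraries are high in nearly every row, except Fgl1 in library 3 at 0.0403 CPM and Gcg in library 2 at 0 CPM, and lung AML libraries lie between them and the controls for Fgf12, Kcne3 and Gtsf1.

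Among noncoding transcripts, Mirg, a host transcript of microRNAs in the imprinted Dlk1-Dio3 region, measured 35.5, 43.3 and 19.6 CPM in marrow AML and 0, 0.0467 and 0.647 CPM in marrow control. Plut, a long noncoding RNA beside the pancreatic factor gene Pdx1, was the most even of all, at 8.91, 8.8 and 8.95 CPM in marrow AML, a 1.02-fold spread, and had no count in any control. It passed in the lung at 0.332, 0.407 and 0.267 CPM in lung AML, at least 8.93-fold above a floor of 3 counts over the lung controls (adjusted p = 0.0218, edgeR). That call rests on 31 counts, and the filter on low counts also used the marrow AML libraries that chose Plut. It was kept in 1 of the 6 fits that left out 1 lung library and not with the replicate block (adjusted p = 0.0726, edgeR). H19, the imprinted noncoding RNA, measured 0.469, 6.8 and 14.6 CPM in marrow AML and 0.367, 0.794 and 0 CPM in marrow control, and 0, 0.074 and 0 CPM in lung AML and 0.788, 0.441 and 0 CPM in lung control. Its lung log2 fold change of −3.82 was the lowest of the 92 and did not pass. Plut and D5Ertd605e on chromosome 5, 147080 bases apart, were the sole pair of the 92 within 200000 bases of each other.

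The lung AML level is the measure that the choice did not use, and it is set beside other symbols held under the same control limit. A mean of at least 1 CPM was reached there by 19 of the 92 (20.7%), against 100 of the 38526 other symbols under 1 CPM in each control (0.26%). A number of 9 reached 1 CPM in each lung AML library, 36 in at least 1, and 56 in none. The lung AML median was 0.423 CPM and the lung control median 0.12 CPM. All 3 lung AML libraries lay above all 3 lung control libraries for 52 of the 92 (56.5%), against 771 of the other symbols under the same limit (2.0%) and 14.2% of all 18147 symbols tested. Symbols with no counts in any lung library cannot separate, so the shares are also given by marrow AML level.

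By marrow AML mean, the share that did not overlap in the lung was 1.77% of 37932 symbols under 1 CPM, 17.0% of 594 from 1 to under 5 CPM, 46.6% of 58 from 5 to under 10 CPM and 73.5% of 34 at 10 CPM or more. A lung AML mean of at least 1 CPM was reached by 0.19%, 4.71%, 6.9% and 44.1% of these. Over the 92, Spearman's rho between mean marrow AML and mean lung AML levels was 0.39, and with mean lung control levels 0.09. These points share libraries and depth and are given as a description.

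**Figure D3:**
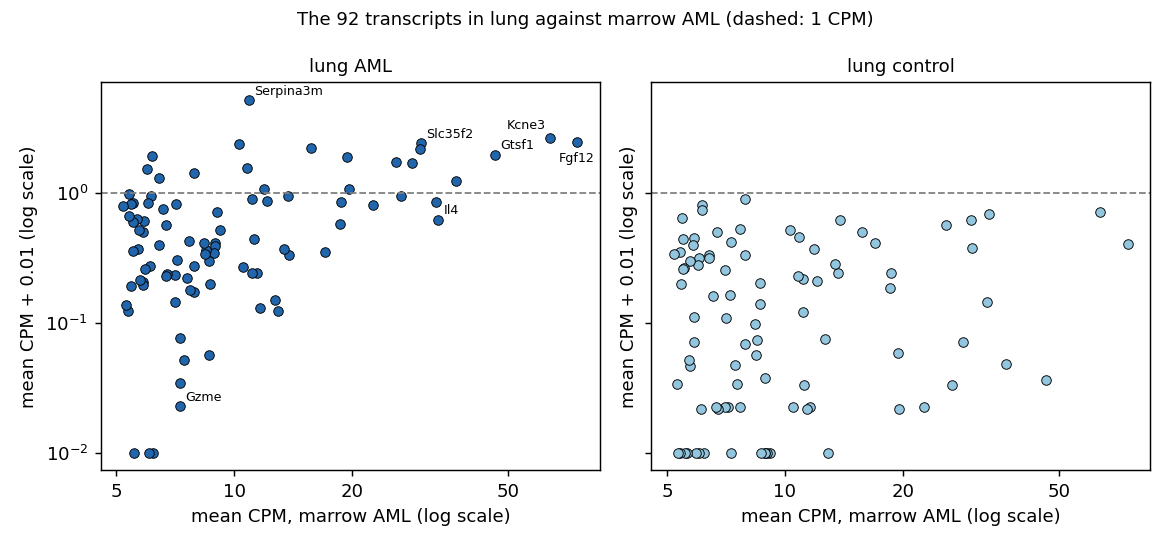
Mean CPM of each of the 92 transcripts in marrow AML (x, log axis) against mean CPM + 0.01 in lung AML and in lung control (y, log axis, 1 panel each); the dashed line is at 1 CPM. In lung AML 19 points lie at or above the line, most at 10 CPM or more in marrow AML, and in lung control none does.

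**Figure D4:**
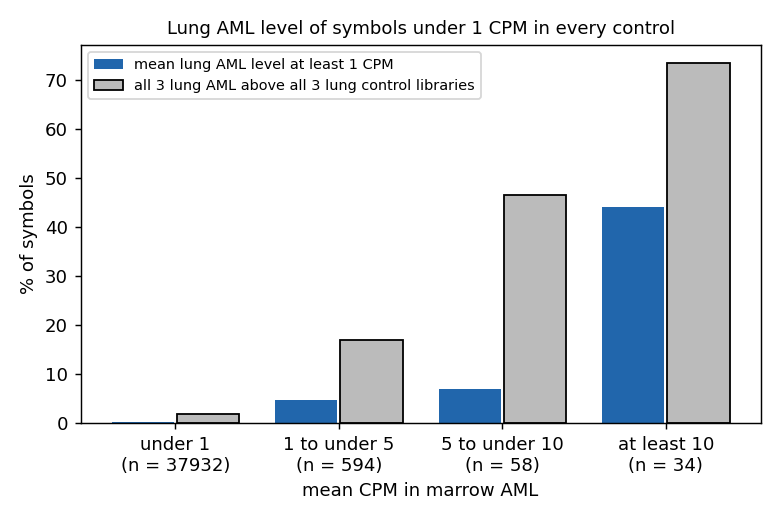
Share in percent, by mean marrow AML level, of symbols under 1 CPM in each control whose lung AML mean is at least 1 CPM and of those whose 3 lung AML libraries all exceed the 3 lung control libraries. Both shares are lowest under 1 CPM (0.19% and 1.77%) and highest at 10 CPM or more (44.1% and 73.5%).

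In the fit across all genes, 90 of the 92 passed the filter on low counts, Gcg and Gzme being left out. Members that passed this filter did so mostly through the marrow AML libraries, which had chosen them, so their lung calls are not free of that choice. Plut, Prss42 and 1700021A07Rik held 31, 55 and 49 counts over lung AML and 0 over lung control. In the lung 13 were called higher in AML and 0 lower, against 1.17% of all 18147 symbols called higher, 1.16% lower and 2.33% in either direction. Because lung controls were held under 1 CPM, this direction is in part fixed by the choice. The edgeR count at an unadjusted p under 0.05 was 45 higher and 0 lower, and the DESeq2 test called 35 members higher. The median lung log2 fold change was 2.18 over the 90 and 0.002 over all symbols. Beside those described, the calls were Gml, Gm773, Gm9732, Gm13023, 1700021A07Rik and G530011O06Rik.

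Gm773, a predicted gene on the X chromosome, measured 17.1, 36.3 and 26.5 CPM in marrow AML and 0, 0.0467 and 0 CPM in marrow control. Lung AML gave 1.23, 0.481 and 1.11 CPM and lung control 0, 0 and 0.07 CPM (log2 fold change 5.06 ± 0.92, adjusted p = 0.0207, edgeR). Per kilobase of exon it was the third highest of the 92 in marrow AML, with 28.1 CPM per kb. Gm13023 measured 21.3, 33.2 and 31.1 CPM in marrow AML and had no count in marrow control. It was also higher in lung AML, at 3.52, 0.666 and 0.877 CPM, than in lung control, at 0, 0.147 and 0.035 CPM (log2 fold change 4.73 ± 0.98, adjusted p = 0.0431, edgeR). G530011O06Rik, which shares 735 exonic bases with Mid1 on the other strand, measured 1.81, 1.22 and 1.52 CPM in lung AML and 0.207, 0.294 and 0.315 CPM in lung control (adjusted p = 0.0348, edgeR).

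Cpne7, a copine that binds membranes in the presence of calcium, measured 16, 30.5 and 30.9 CPM in marrow AML and 0.0459, 0 and 0 CPM in marrow control. In the lung it lay at 2.3, 1.52 and 1.33 CPM with AML and at 0.373, 0.478 and 0.84 CPM in control, without overlap, and was not called. Its relatives, chosen after their values were seen, went both ways. Cpne2 averaged 41.4 ± 4.02 CPM in marrow AML and 70.9 ± 5.90 CPM in marrow control, and Cpne4 had no count in either (SD, n = 3 each). Cpne3 averaged 29.6 ± 11.4 CPM in marrow AML and 6.89 ± 0.875 CPM in marrow control. For Cpne8 the means were 20.6 ± 14.2 CPM in marrow AML and 2.38 ± 0.767 CPM in marrow control.

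Gml, a gene of the Ly6 family of lipid-anchored proteins, measured 1.51, 0.259 and 0.648 CPM in lung AML and 0, 0.0368 and 0 CPM in lung control (log2 fold change 5.61 ± 1.04, adjusted p = 0.0214, edgeR). Its near copy Gml2 averaged 45.6 CPM in marrow AML and 1.20 CPM in marrow control and so missed the rule. The count of called members depended on the libraries: it was 1 without lung AML library 1, 1 without library 3 and 6 without library 2, and 1, 1 and 4 without lung control libraries 1, 2 and 3.

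To take the lung out of the choice, the limit of 1 CPM was put on the marrow controls alone, an alternative added after the values were seen. It took 231 symbols, the 92 and 139 others. Of the 229 tested, 13 (5.68%) were called higher in lung AML and 1 (0.437%) lower, and at an unadjusted p under 0.05 the edgeR counts were 52 higher and 14 lower. The 13 were all among the 92. The lung AML libraries lay wholly above the lung controls for 72 of the 231 (31.2%) and wholly below for 32 (13.9%), against 14.2% and 20.2% of all symbols tested. Among the 139 others 20 (14.4%) lay above and 32 (23.0%) below. Each of the 139 had at least 1 lung control library at 1 CPM or more, so these shares were partly set by the choice. No conclusion is drawn from them. The share above was 56.5% with the limit on lung controls and 31.2% without it.

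Of the 13 calls, those of Gtsf1, Gm773 and Gml were kept with the replicate block (adjusted p = 0.0191, 0.04 and 0.0367, edgeR). Leaving out 1 lung library at a time, Gtsf1 passed in 6 of 6 fits, Gm773 in 2, and Tex19.2, Gm13023, Gml, Lgals7 and Plut in 1. Slc35f2, Serpina3m, Prss42, Gm9732, 1700021A07Rik and G530011O06Rik passed in 0.

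Lung AML library 1 was the highest of the 3 for 49 of the 92, library 2 for 20 and library 3 for 20. Markers of myeloid progenitors and neutrophils differed between these libraries too. Mpo, the peroxidase of neutrophil precursors, measured 21.9, 0.148 and 12.9 CPM in lung AML libraries 1, 2 and 3 and 0.0829, 0.0368 and 0.14 CPM in lung control. Elane, neutrophil elastase, measured 3.52, 0.037 and 5.75 CPM in lung AML and 0 in all lung controls. The 12 such markers summed to 453, 284 and 117 CPM in lung AML and to 154, 89.6 and 64 CPM in lung control. None of the 11 tested, Mpo and Elane included, was called in the lung. Library 2, lowest in Mpo and Elane, was also lowest in the summed level of the 92, at 49.1 CPM, which remained above all lung controls. Other markers of the list, such as S100a8 (93.8, 70.3 and 19.8 CPM) and Ngp (64.5, 30.1 and 7.05 CPM), were lowest in library 3, as was the list's sum. In marrow AML, Mpo measured 4.22, 0.0951 and 119 CPM, and library 2, where it was lowest, had the highest sum of the 92. Marrow control gave 119, 4.81 and 14.7 CPM of Mpo, which overlapped marrow AML. The part of leukaemic or myeloid cells in these levels was not tested.

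At the limits of the rule the values ran on smoothly. Among annotated coding genes, just inside the marrow AML limit lay Msx2 at 5.3 CPM, Tktl1 at 5.44 CPM and Treml2 at 5.46 CPM, and just outside lay Mstn at 4.49 CPM, Hoxc4 at 4.48 CPM and Rgs20 at 4.38 CPM. Just inside the control limit lay Il4, Cd200r3 at 0.956 CPM and Cst7, an inhibitor of lysosomal proteases, at 0.954 CPM. Just outside it lay Trpv1, Drd1 and Sh2d4b, each at 1.0 CPM in 1 control and at 7.2, 8.81 and 11.8 CPM in marrow AML. Cpa3, the mast cell carboxypeptidase, was kept out by 1 lung control at 1.02 CPM, with 11.9, 57.2 and 11 CPM in marrow AML.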

How the data were processed

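Total RNA was extracted with a micro-scale column kit and sequenced from very-low-input libraries, per the labels' protocols. Per the submitters' processing notes bcl2fastq and STAR were used on mm10. Their versions, as well as counter, annotation and filters, were not given in the sources used here. Whole-number counts per gene symbol were deposited by the authors, raw and not normalised, and were, per the file names, counted without strand.

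From these counts CPM were computed from library totals. Counts were tested in R 4.3.3 with edgeR 4.0.16 (quasi-likelihood, robust, TMM scaling, 12 libraries in 1 model of 4 groups, 8 residual degrees of freedom, expression filter with minimum count 10 and minimum total 15). Calls needed a p under 0.05 after Benjamini-Hochberg adjustment over the 18147 symbols tested. The edgeR test was also run on counts simulated from the means and spread of these data, after the main fit. No value given here comes from that run. For groups at 0, bounds used 3 counts over the group as the floor; ratios with 1 to 3 counts carry 95% intervals, which cover counting error only. Alternatives used DESeq2 1.42.0 and limma 3.58.1. Members, lists and alternatives were chosen with earlier results of these data known. Named members are the 24 coding members highest in marrow AML, the 12 highest in lung AML, the 4 most and 4 least even, those next to a limit, marker list members, the 3 highest noncoding or predicted ones and symbol families. Others named, and the grouping by role, were chosen after their values were seen.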

Additional observations from a re-analysis of the deposited data

How the results depend on the processing

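The number of transcripts taken, 92, moved with the limits. It was 43 with a control limit of 0.5 CPM and 178 with 2 CPM, 183 with a marrow AML limit of 3 CPM and 34 with 10 CPM, and 33 when each marrow AML library had to reach 5 CPM. Leaving out 1 library at a time gave between 88 and 106, TMM-scaled library sizes gave 67, and a limit on the marrow controls alone, added after seeing the data, gave 231. The number at 1 CPM or more in lung AML, 19, was 9 when each library had to reach it, 44 at 0.5 CPM and 7 at 2 CPM, and lay between 14 and 28 without 1 lung AML library. Of symbols chosen without marrow AML libraries 1, 2 and 3, those at 5 CPM in the library left out numbered 43, 40 and 35 with TMM-scaled sizes, an alternative chosen after seeing the data.

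The lung calls were the least stable. All symbols called numbered 423 in the main test, 1632 with DESeq2, 2260 with limma-voom and quality weights, 1239 when the 6 lung libraries were fitted alone, and between 72 and 325 without 1 library. Members called higher numbered 13, and 35 with DESeq2, 29 with limma-voom, and between 1 and 6 without 1 library. The cause was not tested. With library totals in place of TMM, the share of marrow calls that were higher in AML was 61.2%, against 46.4%, and the median log2 fold change of all symbols was 0.16, against −0.11; in the lung the shares were 40.0% and 50.1%. Of 485 marrow and 482 lung fits of named members, 2 and 9 turned the sign, all of values not called in either fit. The marrow log2 fold change of Ptx4, 3.77, was −1.59 with limma-voom and between −3.79 and 4.35 without 1 library, and its lung value, 3.88, lay between −1.76 and 5.67. The lung value of Il4, −0.06, was 0.04 with limma-voom and with the replicate block, and between −0.24 and 0.27 without 1 library. That of Fgl1, −0.17, lay between −0.58 and 0.25, and that of Treml2, 0.4, was −0.04 with limma-voom and between −0.08 and 0.95 without 1 library.

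Replicate numbers shared between groups gave correlations of deviations between −0.202 and 0.259, so the numbers were not taken to pair libraries. With the replicate block, 7253 symbols were called in the marrow and 331 in the lung, and 3 members were higher in the lung. Depth limits the lung levels: 3 counts are worth between 0.0766 and 0.124 CPM in a lung library.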
